A study of Mus musculus with 6 samples.

Results

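The genes described here are 37 targets and partners of the transcription factor p53, grouped by what their products do: feedback on p53, cell cycle arrest, apoptosis, DNA repair, and metabolism and stress. Members were chosen by gene symbol, and of the probe sets annotated to that symbol alone the one with the brightest mean was read for each gene. This gave 34 of the 37 genes, out of 19938 genes in all. For Trp53 itself, Bax and Gdf15 no such probe set was analysed here. No filter on dim signals was applied, so that weakly expressed apoptotic targets are included.

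RNA came from the dissected heads (forebrain and midbrain vesicles) of 6 mouse embryos on a C57Bl6 background at E10.5. There were 3 wild-type heads (WT) and 3 heads labelled as Taspase1 knock-outs (KO, Tasp1-/-), all from intercrosses of Tasp1+/- parents, each read on 1 Affymetrix array from 100 ng of total RNA. Taspase1 is a protease that cleaves nuclear proteins, among them MLL-family histone methyltransferases and the TFIIA precursor. Which part of the gene is deleted is not given in the labels, and the arrays do not measure the protein. Values are log2 signals, differences are KO-labelled minus WT-labelled means, and a difference of +1 is a doubling of signal.

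In unstressed cells p53 is kept scarce by the ubiquitin ligase MDM2 and its partner MDM4, and Mdm2 is itself a p53 target, which closes a feedback loop. DNA damage, ribosome defects and other stresses release p53, which then activates genes that stop the cell cycle, repair DNA, adjust metabolism or start apoptosis. Early neural tissue is known to be sensitive to p53, and excess p53 activity in the embryo is associated with loss of neural progenitors and craniofacial defects.

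p53 binds a pair of 10-base half-sites. A 20-base element made of 2 adjacent half-sites, with at most 3 mismatches to the consensus and none in the C and G of each core, was searched in RefSeq promoter windows (GRCm38.p6, 250 bases before to 50 after a gene's start). The consensus reads the same on both strands. Of the 37 genes, 31 had a window and 7 held an element, beside 1.63% of all 27025 genes with a window. With at most 2 mismatches it was 3 members (Ccng1, Ckap2 and Rps27l), beside 0.392%. The limits on mismatches were chosen after several had been looked at. The elements of the 6 measured members are shown because they are the sequence feature these genes can be compared by, 5′ to 3′ on the gene's strand, with the 4-base core of each half-site in capitals. The remaining gene with an element is Trp53.

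Ccng1: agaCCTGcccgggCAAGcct
Rps27l: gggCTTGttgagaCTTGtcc
Ckap2: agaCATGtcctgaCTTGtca
Aen: gggCTTGtccgggCAAGgag
Bbc3: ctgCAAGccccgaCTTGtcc
Sesn1: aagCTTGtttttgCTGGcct

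The Ccng1 element (chr11:40755462-40755481, minus strand) and the Rps27l element (chr9:66946296-66946315, plus strand) have 1 mismatch each, and the Ckap2 element (chr8:22186003-22186022, minus strand) has 2. The elements of Aen (chr7:78895937-78895956), Bbc3 (chr7:16309486-16309505) and Sesn1 (chr10:41887266-41887285), all on the plus strand, have 3. They begin 195 bases before the start in Ccng1, 117 in Rps27l, 203 in Ckap2, 97 in Bbc3 and 173 in Sesn1. In Aen, which has 2 annotated starts, the element begins 121 bases before one of them and at base 11 of the transcript from the other. A match is a likeness of letters and not a measured binding site.

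The 3 members with the smallest p-values were Eda2r, Ccng1 and Phlda3, and the 250 bases before their starts are shown for comparison, with the element in capitals.

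Ccng1: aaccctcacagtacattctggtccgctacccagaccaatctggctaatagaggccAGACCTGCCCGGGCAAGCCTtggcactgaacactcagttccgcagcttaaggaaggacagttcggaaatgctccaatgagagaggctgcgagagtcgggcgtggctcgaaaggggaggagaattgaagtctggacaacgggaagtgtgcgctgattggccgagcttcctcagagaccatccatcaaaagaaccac
Phlda3: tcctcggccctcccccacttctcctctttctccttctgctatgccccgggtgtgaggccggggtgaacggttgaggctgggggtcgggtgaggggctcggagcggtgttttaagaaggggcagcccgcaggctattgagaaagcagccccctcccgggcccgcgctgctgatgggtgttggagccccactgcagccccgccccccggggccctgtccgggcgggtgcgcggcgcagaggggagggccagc
Eda2r: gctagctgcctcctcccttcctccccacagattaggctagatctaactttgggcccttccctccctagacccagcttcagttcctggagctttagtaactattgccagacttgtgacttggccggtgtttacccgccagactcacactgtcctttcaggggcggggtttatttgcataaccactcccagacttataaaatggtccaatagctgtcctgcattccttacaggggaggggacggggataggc

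These windows lie at chr11:40755287-40755536 (minus strand) for Ccng1, chr1:135765835-135766084 (plus strand) for Phlda3 and chrX:97377210-97377459 (minus strand) for Eda2r, with a G+C content of 55.2%, 71.2% and 53.2%. The Phlda3 and Eda2r windows hold no element under the limits used, which says only that these letters are not in these windows.

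Pairwise Pearson correlations of the 6 arrays across genes ran from 0.996 to 0.998, a measure that cannot show an offset between arrays. WT 1 had the lowest array median, 7.35, beside 7.42 to 7.45 in the other heads. It also had the lowest array quality weight, 0.604. Xist was bright in WT 2 (12.32) and dim elsewhere (4.90 to 5.24), while the Y-linked gene Uty was dim in WT 2 (4.72) and bright elsewhere (9.42 to 9.71), so WT 2 had the pattern of a female and 5 heads that of males. The Tasp1 signal was not lower in the heads labelled KO, at 8.63, 8.63 and 8.50 against 8.10, 8.45 and 8.49. The probe set's place relative to the deletion is unknown here, so it checks nothing, and the groups are named below by their labels, as KO-labelled and WT-labelled. Of the forebrain and midbrain markers, 13 of 14 were measured, and their probe sets were brighter than 47.8% to 96.5% of those with 1 symbol (median 79.9%). The 8 Hox and related markers of hindbrain and trunk were dimmer, with a median of 20.8%.

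Most members had a higher signal in the KO-labelled heads, and the differences were small except in Eda2r and Ccng1. Of the 34 members 26 were higher (76.5%) and 8 lower, with a median difference of +0.12, beside 42.8% higher and a median of −0.01 over all genes. With each array centred on its median, 29 members and 53.9% of all genes were higher. In limma's test over all 19938 genes, 0 members passed an adjusted p of 0.05, beside 2 genes (0.0100%), Caprin2 and Mir9-1, that are not members. At an unadjusted p under 0.05, 13 members were higher and 1 lower (38.2% and 2.94%), beside 2.16% and 4.12% of all genes. With median centring those shares of all genes were 3.7% and 2.47%, so that higher genes made up 59.9% instead of 34.3% of those under that p.

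The lowest KO-labelled head lay above the highest WT-labelled one for 16 members (47.1%), beside 4.07% of all genes. For 2 members, Plk3 and Abhd4, the highest KO-labelled head lay below the lowest WT-labelled one, beside 6.99%. With 3 heads against 3, an exact two-sided permutation test gives 0.1 for each of these 18 members, the smallest p it can give. Since the members were chosen with results of these data known, the counts describe the list and are no independent test of it.

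**Figure D1:**
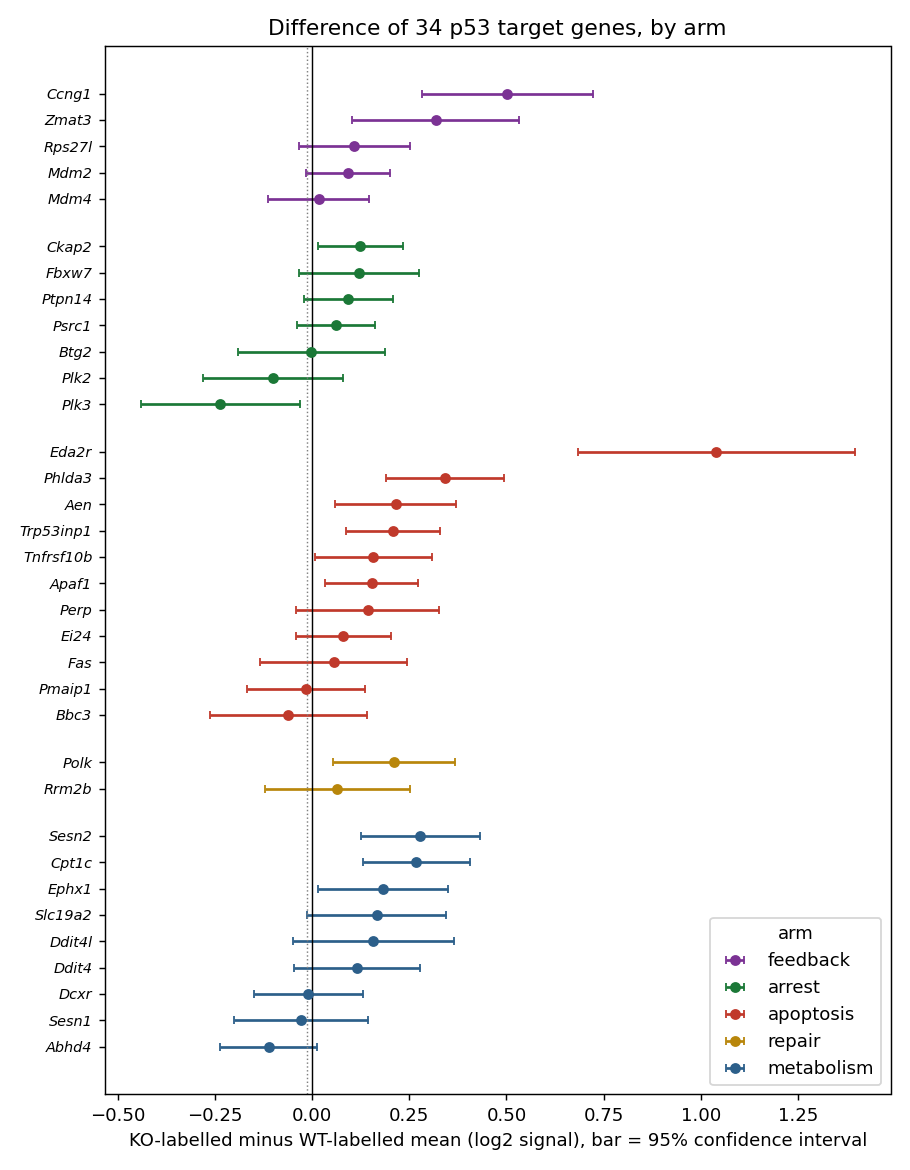
Difference between KO-labelled and WT-labelled means in log2 signal for the 34 measured members, ordered within each arm, with 95% confidence intervals from limma; the dotted line is the median of all genes. Eda2r stands apart at +1.04, Ccng1 follows at +0.50, and Plk3 is the only member whose interval lies wholly below 0.

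In the feedback arm all 5 measured genes were higher, by +0.02 to +0.50. Ccng1 (probe set 10385271), which encodes cyclin G1, a partner of the phosphatase that acts on MDM2, gave signals of 11.25, 11.63 and 11.76 in KO 1, KO 2 and KO 3, and of 11.04, 11.04 and 11.05 in WT 1, WT 2 and WT 3. Values by head are given in this order from here on. The WT-labelled heads were nearly identical, and the KO-labelled heads were all above them but spread widely. The means were 11.55 ± 0.26 and 11.04 ± 0.01 (SD, n = 3 each), 1.42 times the WT-labelled signal (difference +0.50, SE 0.10, limma adjusted p = 0.241).

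Zmat3 encodes a zinc finger protein that binds RNA, including the p53 messenger. It read 9.14, 9.39 and 9.24 against 8.81, 8.85 and 9.17. WT 3 lay just above KO 1, so the groups overlapped, although the difference was +0.32 (SE 0.10, limma adjusted p = 0.621). Mdm2 was only slightly higher, at 10.10, 10.19 and 10.16 against 10.03, 10.08 and 10.06, and its groups did not overlap. Its difference of +0.09 had a 95% confidence interval from −0.02 to 0.20, which as a ratio of signals reaches up to 1.15.

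Mdm4, the partner of MDM2, differed by +0.02 (95% confidence interval −0.11 to 0.15). Rps27l, a ribosomal protein gene whose product acts on MDM2, differed by +0.11 (−0.03 to 0.25), with WT 1 at 11.92 level with KO 2. Both genes had overlapping groups. The Rps27l difference was +0.18 without WT 1 and +0.07 without WT 2. Rps27l and Ccng1 carry elements of equal mismatch count and had different sizes of difference, a comparison for which no test was run.

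The apoptosis arm held the member with the largest difference. Eda2r (probe set 10605874, on the X chromosome), a receptor of the TNF receptor family, read 7.03, 7.56 and 7.79 against 6.27, 6.42 and 6.57. The lowest KO-labelled head lay 0.46 above the highest WT-labelled head. Group means of 7.46 ± 0.39 and 6.42 ± 0.15 (SD, n = 3 each) differed by +1.04 (SE 0.16, 95% confidence interval 0.68 to 1.40), 2.06 times as high. Only the Y-linked genes Uty, Eif2s3y and Kdm5d, which are low in WT 2, had larger positive differences among the 19938 genes. By p-value Eda2r ranked 10 over all genes, with a limma adjusted p of 0.102.

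Eda2r is dim: its mean signal was brighter than 38.2% of the probe sets, and both the WT-labelled mean and the overall mean lay below the level of 7.06 under which the dimmest 40% fall. How much of so low a signal is background is unknown here, so 2.06 compares signals and cannot be read as a fold of transcripts. With 64 added on the linear scale the difference was +0.69. WT 2, the female head, lay between the other WT-labelled heads, and without it the difference was +1.04.

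Phlda3 (probe set 10350146), whose product competes with AKT for membrane lipids and so restrains survival signalling, read 8.43, 8.44 and 8.60 against 8.15, 8.10 and 8.17. Both groups were tight and clearly apart, at 8.49 ± 0.09 and 8.14 ± 0.04 (SD, n = 3 each), 1.27 times as high (limma adjusted p = 0.241). Trp53inp1, a regulator of p53 modification and autophagy, read 9.91, 9.85 and 9.93 against 9.75, 9.70 and 9.62. Its groups were also apart, by a difference of +0.21 (SE 0.05, limma adjusted p = 0.473).

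Aen encodes an exonuclease that degrades DNA in dying cells. It read 8.82, 9.04 and 8.99 against 8.78, 8.68 and 8.76, so that KO 1 lay just above WT 1. Apaf1, the scaffold of the apoptosome, read 9.70, 9.68 and 9.62 against 9.45, 9.53 and 9.56, a difference of +0.15. Tnfrsf10b, a death receptor gene, read 8.32, 8.40 and 8.50 against 8.30, 8.21 and 8.24. Neither Apaf1 nor Tnfrsf10b overlapped between groups, and the difference of Tnfrsf10b was +0.16, with KO 1 close to WT 1.

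The direct triggers of mitochondrial apoptosis had overlapping groups. Bbc3, which encodes PUMA, read 6.53, 6.37 and 6.58 against 6.71, 6.50 and 6.45, a difference of −0.06 (95% confidence interval −0.26 to 0.14). Pmaip1, which encodes NOXA, read 6.89, 6.91 and 6.92 against 6.91, 6.96 and 6.90, a difference of −0.02 (−0.17 to 0.14), which is +0.01 with median centring. Neither gene had a head order that set the groups apart. Fas, a death receptor gene, read 4.63, 4.45 and 4.58 against 4.35, 4.65 and 4.48, a difference of +0.06 (−0.13 to 0.24). Bbc3, Pmaip1 and Fas were brighter than 31.7%, 37.9% and 7.62% of the probe sets, and how much of their signal is background is unknown. Perp, a membrane protein gene of desmosomes, and Ei24, an endoplasmic reticulum protein gene, differed by +0.14 and +0.08 with overlapping groups. With 1 head left out, Perp ran from +0.06 (without KO 2) to +0.20 (without WT 1) and Ei24 from +0.04 (without KO 3) to +0.13 (without KO 1).

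**Figure D2:**
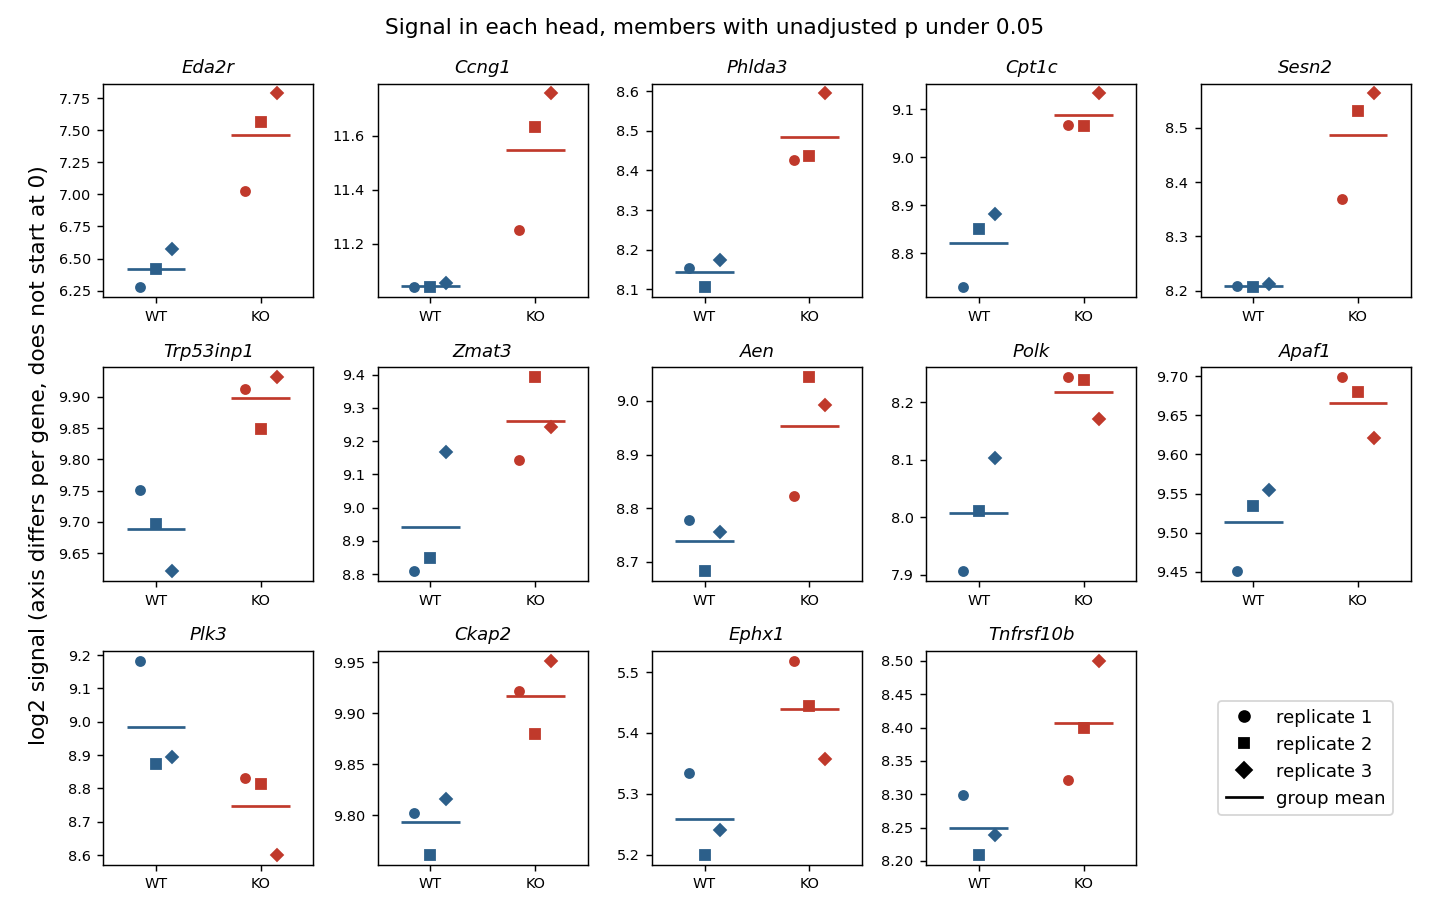
Log2 signal in each head for the 14 members with an unadjusted p under 0.05, ordered by p, with WT-labelled heads in blue, KO-labelled heads in red and a bar at each group mean. Vertical axes differ between genes. The groups are apart in all panels but Zmat3, Plk3 is the only gene lower in the KO-labelled heads, and replicate 1 is the lowest KO-labelled head for Eda2r and Ccng1.

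The arrest arm had small differences in both directions, with 4 of 7 genes higher, 3 lower and a median of +0.06. Plk3, a stress-responsive polo-like kinase gene, read 8.83, 8.81 and 8.60 against 9.18, 8.87 and 8.90. It was the only member lower at an unadjusted p under 0.05 (difference −0.24, SE 0.09, limma adjusted p = 0.773), and KO 3 and WT 1 were the extreme heads. Without KO 3 or without WT 1 the Plk3 difference was −0.16 or −0.14, and no member was then lower at that p; without KO 1 both Plk3 (−0.28) and Plk2 (−0.19) were. Its relative Plk2 read 8.76, 8.52 and 8.45 against 8.73, 8.66 and 8.65, a difference of −0.10 with KO 1 above every WT-labelled head, and of −0.04 without KO 3.

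Ckap2, a spindle protein gene, read 9.92, 9.88 and 9.95 against 9.80, 9.76 and 9.82. These groups were narrow and apart, by +0.12. Psrc1, also of the spindle, read 10.33, 10.40 and 10.38 against 10.30, 10.30 and 10.32, a difference of +0.06. Ptpn14, a phosphatase gene that restrains YAP, read 9.58, 9.62 and 9.60 against 9.46, 9.51 and 9.55. In all 3 of these genes the KO-labelled heads lay above the WT-labelled ones without overlap.

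Fbxw7, which encodes a ubiquitin ligase subunit that removes cyclin E and MYC, was the only member with more than 1 probe set of its own. The brighter one read 7.95, 8.0 and 7.87 against 7.85, 7.75 and 7.86, barely apart, with a difference of +0.12. The dimmer one differed by −0.05, so its probe sets disagree in sign. Btg2, an antiproliferative gene of early neurogenesis, differed by −0.0014 (95% confidence interval −0.19 to 0.19), or by +0.02 with median centring.

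The repair arm has only 2 genes. Polk, which encodes a DNA polymerase that copies past damaged bases, read 8.24, 8.24 and 8.17 against 7.91, 8.01 and 8.10. Its groups were apart, by +0.21 (SE 0.07, limma adjusted p = 0.682). Rrm2b, a subunit of the enzyme that supplies deoxynucleotides, differed by +0.06 with overlapping groups (95% confidence interval −0.12 to 0.25), from 0.0009 without KO 1 to +0.13 without KO 3.

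In the metabolism and stress arm the median of the 9 measured genes was +0.16, and 6 of them were higher. Sesn2, which encodes a sestrin that restrains mTORC1, read 8.37, 8.53 and 8.56 against 8.21, 8.21 and 8.21. The WT-labelled heads were almost the same and the KO-labelled heads all above them, 1.21 times as high (difference +0.28, SE 0.07, limma adjusted p = 0.387). Its paralog Sesn1, which has the promoter element shown above, read 9.14, 8.93 and 8.83 against 9.02, 8.95 and 9.01, with no separation (difference −0.03).

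Cpt1c, a brain-type carnitine palmitoyltransferase gene, read 9.07, 9.06 and 9.13 against 8.73, 8.85 and 8.88. The groups were apart, 1.20 times as high (difference +0.27, SE 0.06, limma adjusted p = 0.308). Ephx1, a detoxifying epoxide hydrolase gene, read 5.52, 5.44 and 5.36 against 5.33, 5.2 and 5.24, and was brighter than only 15.7% of the probe sets. Its groups barely separated, with a difference of +0.18, or +0.07 with 64 added on the linear scale.

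The thiamine transporter gene Slc19a2 differed by +0.17, and Ddit4 and Ddit4l, which restrain mTORC1, by +0.12 and +0.16. All 3 had overlapping groups, and each depended on single heads. Ddit4l ran from +0.09 without WT 2 to +0.26 without WT 1, and Slc19a2 from +0.11 to +0.24 without the same heads. Ddit4 was at +0.04 without KO 1. Abhd4, a lipase gene, read 9.05, 9.06 and 8.99 against 9.20, 9.12 and 9.12, with every KO-labelled head lower (difference −0.11, 95% confidence interval −0.24 to 0.01). Dcxr, a xylulose reductase gene, differed by −0.01 (−0.15 to 0.13), or by +0.01 with median centring.

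**Figure D3:**
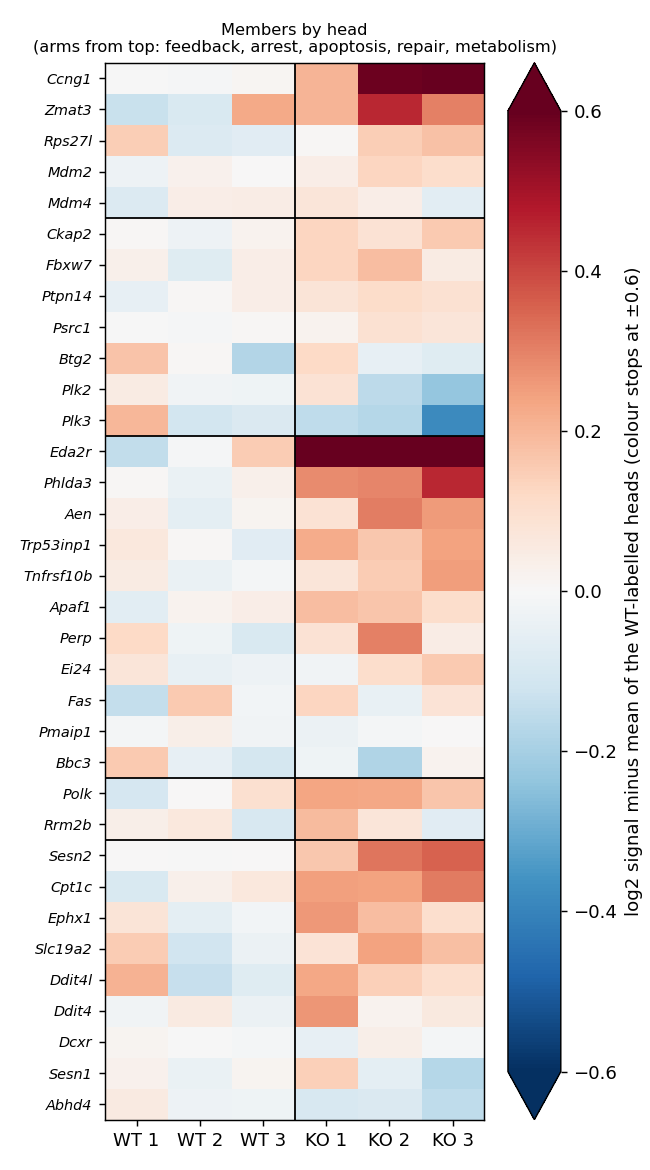
Signal of each measured member in each head, as the log2 difference from the mean of the WT-labelled heads, with arms separated by lines and colours that stop at 0.6 in either direction. Red rows in the KO-labelled columns are spread over the feedback, arrest, apoptosis, repair and metabolism arms. Those of the arrest arm, where 4 of 7 genes were higher and 3 lower, are pale. For Ccng1 KO 1 is paler (+0.21) than KO 2 (+0.59) and KO 3 (+0.71).

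The KO-labelled heads were not alike in the size of the difference. Eda2r lay above the WT-labelled mean by 0.61 in KO 1, 1.14 in KO 2 and 1.37 in KO 3. Ccng1 lay above it by 0.21, 0.59 and 0.71, and Sesn2 by 0.16, 0.32 and 0.36. KO 1 was the lowest KO-labelled head in 7 of the 13 members that were higher at an unadjusted p under 0.05. Over all 34 members it was lowest in 44.1%, beside 29.6% of all genes. Without KO 1, Ccng1 and Eda2r passed limma's threshold over all genes (adjusted p = 0.0015 and 0.0025, differences +0.65 and +1.26), 2 of the 11 genes that did so. Over the median of the members the KO-labelled heads were closer, at +0.12, +0.14 and +0.10 above the WT-labelled mean, and the WT-labelled heads lay between −0.01 and +0.02.

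**Figure D4:**
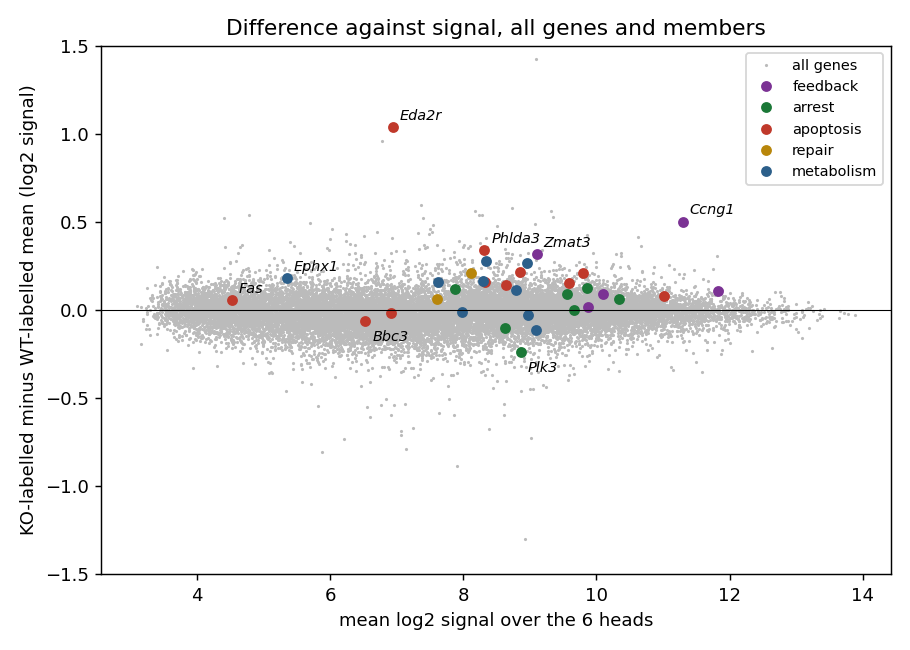
Difference between KO-labelled and WT-labelled means against the mean log2 signal over the 6 heads, for all genes (grey; 3 sex-linked genes lie outside the vertical range) and for the members by arm. Eda2r stands out at low signal and Ccng1 at high signal, while Fas, Bbc3 and Ephx1 lie among other dim genes.

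Genes that act on p53 or beside it were read in the same fit. Of 24 regulators (kinases, ubiquitin ligases, acetylases and p53 relatives) 23 were measured, and 0 passed the adjusted threshold and 0 had an unadjusted p under 0.05. Of all genes, 2.16% were higher and 4.12% lower at that p, so 0 in a list this short is near those shares. The median of the regulators was +0.04, with 17 higher (73.9%) and 6 lower, beside 42.8% of all genes higher. The largest difference among them was that of Prkdc, the DNA-dependent protein kinase gene, at +0.19. The deubiquitinase gene Usp7 (+0.09) and the deacetylase gene Sirt1 (+0.12) had KO-labelled heads wholly above the WT-labelled ones, as did the p53 relative Trp63 (+0.10), and the kinase gene Chek1 (−0.04) wholly below. These are 13% and 4.35% of the regulators, beside 4.07% and 6.99% of all genes.

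A separate list of 18 further p53 targets had 15 measured genes, of which 0 passed and 0 had an unadjusted p under 0.05. Beside 2.16% of all genes higher and 4.12% lower at that p, 0 in a list this short is near the share of all genes. The list's median was +0.01, and the differences ran from −0.12 in Ndrg1 to +0.05 in Tob1. The damage-response genes Gadd45a (+0.01), Ddb2 (+0.04) and Xpc (−0.02) were among them. Cdkn1a, the best-known arrest target, was not measured by a probe set of its own. In the general apoptosis machinery, such as BCL2 family members and caspases, 19 of 21 genes were measured, with a median of −0.0036. Of these 0 passed and 0 had an unadjusted p under 0.05, again near the 2.16% and 4.12% of all genes. Cdkn2a, whose product ARF restrains MDM2, differed by +0.06 with overlapping groups.

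The tissue is a mixture, and in bulk RNA fewer cells of a type and less RNA per cell cannot be told apart. The summed linear signal of 9 macrophage markers was 1158 to 1278 in the KO-labelled and 1282 to 1322 in the WT-labelled heads, barely apart. These markers were mostly dim, brighter than 22.8% to 56% of the probe sets (median 32.4%). How much of their signal is background is unknown. The list's median difference was −0.05, with 6 markers lower and 3 higher. The complement gene C1qb (−0.30) was the only one with an unadjusted p under 0.05, while Cx3cr1 (+0.11) and Aif1 (+0.09) were higher. Summed signals overlapped between groups for erythroid cells (8 of 9 markers measured; 25393 to 27441 against 26525 to 28426), endothelium (8 of 8; 5743 to 5999 against 5753 to 6062) and mesenchyme and neural crest (12 of 12; 8415 to 10047 against 8662 to 9339). They also overlapped for surface ectoderm (8 of 8; 3575 to 3809 against 3758 to 4355), hindbrain and trunk (8 of 8; 489 to 567 against 511 to 605) and the forebrain and midbrain markers (15203 to 15652 against 14827 to 16823).

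Single markers differed within these lists. All 8 erythroid markers were lower, with a median of −0.10, and the embryonic globin gene Hbb-bh1 (−0.21) had its groups apart. The endothelial gene Ramp2 (−0.32) was lower with groups apart, in a list with 4 genes higher and 4 lower. In the mesenchyme and neural crest list, with a median of +0.01, the neural crest genes Sox10 (−0.38) and Foxd3 (−0.22) were lower with groups apart and the matrix gene Dcn (+0.36) was higher with overlap. In the surface ectoderm list, with a median of −0.05, Cldn6 (−0.32) and Tfap2c (−0.30) were lower and Cdh1 (+0.16) higher, all with groups apart. Epcam (−0.11) and Trp63 (+0.10) also had groups apart. Of these 8 markers, 3 were wholly below and 2 wholly above (37.5% and 25%), beside 6.99% and 4.07% of all genes. The forebrain and midbrain markers had a median of +0.01, 7 being higher and 6 lower. The selector genes Lhx2 (−0.33) and Emx2 (−0.32) were lower with groups apart, and En2 (+0.16) was higher with overlap. Of the genes named in these lists, all but Cx3cr1, Aif1, Epcam, Trp63 and En2 had an unadjusted p under 0.05, and 0 passed the adjusted threshold. The part of these markers in the differences of the p53 targets was not tested.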

How the data were processed

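The authors deposited 1 table of log2 signals for 35556 probe sets on 6 arrays, running from 2.73 to 14.4 with array medians from 7.35 to 7.45. The scale was read from the values, and the deposited log2 values were used unchanged. Affymetrix Expression Console and MAS5 are named in the submitters' processing notes; background correction, scaling, summarisation and genome build are not given in the sources used here. Probe sets were named from the platform annotation (21789 with 1 symbol, 1621 with several, 12146 unnamed). KO-labelled and WT-labelled heads, separate embryos per the labels, were compared with limma 3.58.1 (R 4.3.3; lmFit and eBayes, two-sided, spread modelled as a trend on mean signal, Benjamini-Hochberg over 19938 genes, threshold 0.05), tested first on simulated data. The number of arrays limits the precision. Members, arms and lists were chosen with earlier results of these data known. All members are named; values by head are given for those with an unadjusted p under 0.05 or groups apart, and for Mdm2 and the dim targets. Plk2 and Sesn1 were added to these after their values were seen, for comparison with their paralogs. Of each other list, members with an unadjusted p under 0.05 are named, at most 4; genes named beyond that were chosen after their values were seen. The labels state no pairing of heads. Deviations from the group mean correlated at −0.11, −0.14 and −0.27 between same-numbered heads. With 3 heads per group these correlations depend on each other and cannot show whether heads were paired. Alternatives changed the scaling, an addition on the linear scale, the filter, the probe set rule, the variance model and the weights, added the replicate block, or left out each head. Promoter sequences are from RefSeq (GRCm38.p6), with 31 of 37 symbols matched; figures were drawn with matplotlib 3.10.9.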

Additional observations from a re-analysis of the deposited data

How the results depend on the processing

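With 0 to 11 genes past adjusted p 0.05 over the heads left out in turn, the call over all genes was unstable. It was 2 genes as reported, 0 with 1 or 64 added on the linear scale, with the dimmest 40% left out or without a variance trend, 1 with quantile normalization, 4 with median centring and 5 with array quality weights. With the replicate number as a block 1 gene passed, the member Eda2r (limma adjusted p = 0.037), the block changing the count of all genes called from 2 to 1 and that of members from 0 to 1; 0 of the 3 KO-labelled heads correlated best with the WT-labelled head of its own number. With each head left out, 0 to 2 members passed that threshold, 9 to 17 were higher and 0 to 2 lower at an unadjusted p under 0.05. Of all genes, 1.21% to 3.19% were then higher and 2.26% to 5.72% lower at that p. In the other settings 10 to 17 members were higher, beside 1.76% to 3.7% of all genes. With quantile normalization 2 were lower and with array weights 0, beside 5.74% and 4.81% of all genes. The members with groups apart, 18 as reported, were 13 with quantile normalization. The share of all genes with groups apart was not computed in that setting. The members' median, 0.1181 as reported, was 0.0981 with 64 added, 0.1392 with median centring and 0.0983 to 0.1254 with each head left out. Ccng1, Zmat3, Phlda3, Trp53inp1, Polk, Sesn2 and Cpt1c kept an unadjusted p under 0.05 in all 16 settings, and Eda2r in the 15 that hold it; with the dimmest 40% left out Eda2r, Bbc3, Pmaip1, Fas and Ephx1 have no value. Differences near 0 changed sign. With median centring Btg2 was at 0.0197, Pmaip1 at 0.0054 and Dcxr at 0.0119, and with array weights Btg2 was at 0.0222. With each head left out, Mdm4 ran from −0.0248 to 0.0571, Btg2 from −0.0896 to 0.084, Bbc3 from −0.1134 to 0.017, Pmaip1 from −0.0264 to 0.0018, Fas from −0.0156 to 0.1342, Sesn1 from −0.115 to 0.0408 and Dcxr from −0.0314 to 0.0116. The cause was not tested.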
